A study of Mus musculus with 2 samples.

Results

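The 3 mouse genes of the miR-26 family, Mir26a-1, Mir26a-2 and Mir26b, were followed in small RNA libraries of the newborn adrenal gland. They were chosen by gene symbol, as the microRNAs (miRNAs) lying in introns of the Ctdsp phosphatase genes, by a rule that uses no measured value, and all 3 were among the 1973 gene rows of each table. The choice was nonetheless made with earlier results of these data known. The libraries came from B6NCrl mice at postnatal day 0, with no treatment, transgene or second tissue. There are 2 libraries, one for the pair of adrenals of pup 1 and one for that of pup 2, and these pups were littermates. Their labels carry a single donor identifier although they name separate pups. If that identifier meant 1 animal, the spread between the libraries would be technical. The sex was not collected, and the RNA was size-selected below 30 nucleotides.

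A miRNA is cut from a hairpin precursor that leaves mature strands from its 5' arm and its 3' arm. The mature strand pairs with target mRNAs mainly through its seed, bases 2 to 8. The miR-26 genes are transcribed within their host genes Ctdspl, Ctdsp2 and Ctdsp1, which encode small phosphatases that act on the C-terminal domain of RNA polymerase II. miR-26 is found in many differentiated tissues and is known as a repressor of cell cycle genes.

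The mature strands are shown because their identity between loci decides which gene row a read can enter. Sequences are from RefSeq on GRCm38.p6, with the seed in capitals, and all 3 genes were matched by symbol.
miR-26a-5p, from Mir26a-1 and Mir26a-2: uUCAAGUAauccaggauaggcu
miR-26b-5p, from Mir26b: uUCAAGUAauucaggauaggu
miR-26a-1-3p: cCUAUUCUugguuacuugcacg
miR-26a-2-3p: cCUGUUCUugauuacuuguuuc
miR-26b-3p: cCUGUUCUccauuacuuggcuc

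Both 5' arm strands carried the seed UCAAGUA, and no other mouse mature miRNA of the RefSeq table did. Counted from 1 at the 5' end of miR-26a-5p, miR-26b-5p differed by C11U and C21U, both outside the seed, and was 21 bases long in place of 22. The 3' arm strands were less alike. miR-26a-1-3p and miR-26a-2-3p differed at 6 of 22 bases, and miR-26a-2-3p and miR-26b-3p at 4. The seed CUGUUCU of those last strands was shared with miR-6932-3p and miR-7039-3p, while the seed of miR-26a-1-3p occurred in no other mature strand of the table.

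The hairpins show how far the identity of the 2 miR-26a loci reaches. Both mature arms are in capitals.
Mir26a-1: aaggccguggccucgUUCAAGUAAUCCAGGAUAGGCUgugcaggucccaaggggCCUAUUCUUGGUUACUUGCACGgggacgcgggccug
Mir26a-2: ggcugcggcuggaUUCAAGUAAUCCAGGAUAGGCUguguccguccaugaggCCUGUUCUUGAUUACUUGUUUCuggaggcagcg
Mir26b: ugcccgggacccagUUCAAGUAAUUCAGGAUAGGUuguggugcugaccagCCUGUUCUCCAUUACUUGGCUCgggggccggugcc

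The longest run common to the Mir26a-1 and Mir26a-2 hairpins was 25 bases, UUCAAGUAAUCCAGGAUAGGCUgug, which is the whole of miR-26a-5p (capitals) and the 3 bases after it. The first base before the mature strand already differed between these loci. Of the 18-base windows along each hairpin, 8 of 73 in Mir26a-1 and 8 of 67 in Mir26a-2 occurred in a second RefSeq miRNA hairpin, all of them inside that run. None of the 68 windows of Mir26b did. Its longest run in common with a miR-26a hairpin was 11 bases.

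**Figure D1:**
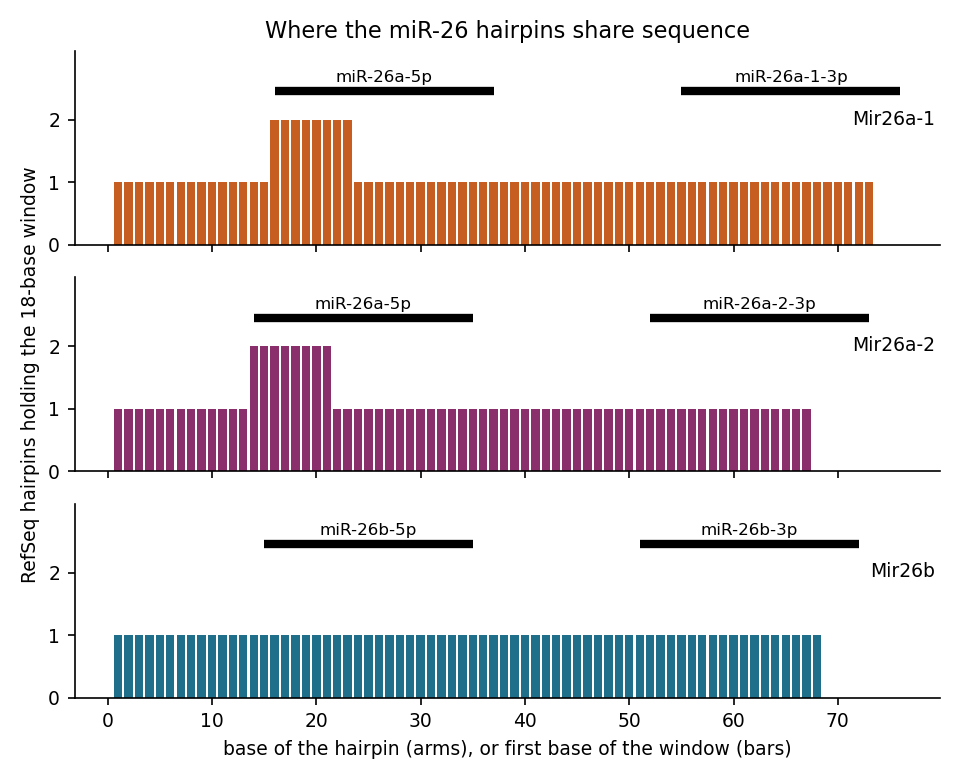
Number of RefSeq mouse miRNA hairpins (vertical axis) that hold each 18-base window, plotted at the window's first base along the 3 hairpins, with the mature arms as black bars. The Mir26a-1 and Mir26a-2 hairpins share 8 windows at the 5' arm, and every other window of the 3 hairpins occurs in 1 hairpin.

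The tables keep reads that map to several loci apart from the gene rows. A read made only of miR-26a-5p matches both miR-26a hairpins, so the counts of Mir26a-1 and Mir26a-2 do not measure miR-26a. They hold the reads that the authors' processing placed at 1 of these loci. Which arm those reads came from is not resolved by gene counts. Pup 1 had 785013 multi-mapped reads, 27.5 times its count of Mir26b, and pup 2 had 2032469, 21.9 times its count. They made up 34.9% and 32.2% of the tabulated reads. The tables do not divide them by miRNA, so they set no useful upper limit on miR-26a. The hairpin comparison covers miRNA hairpins and not the rest of the genome.

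In position, the 3 genes repeat one layout. On mm10, Mir26a-1 (ENSMUSG00000065513.1) lies at chr9:119031796-119031885 on the plus strand, in intron 5 of the 8-exon transcript Ctdspl-201. Mir26a-2 (ENSMUSG00000065430.1) lies at chr10:126995530-126995613 on the plus strand, in intron 5 of the 8-exon transcript Ctdsp2-202. Mir26b (ENSMUSG00000065468.1) lies at chr1:74394310-74394394 on the plus strand, in intron 4 of the 7-exon transcript Ctdsp1-201. Each has the strand of its host and overlaps no exon of the host's coding transcripts. In every host the exon before the intron is 57 bases long and the exon after it 93 bases.

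The introns themselves differ in size. The intron is 3283 bases in Ctdspl, 1946 bases in Ctdsp2 and 564 bases in Ctdsp1. Mir26a-1 starts 105 kb from the start of its host transcript, Mir26a-2 16.8 kb and Mir26b 2.80 kb. Host mRNAs are not part of the tables, so host expression was not measured.

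**Figure D2:**
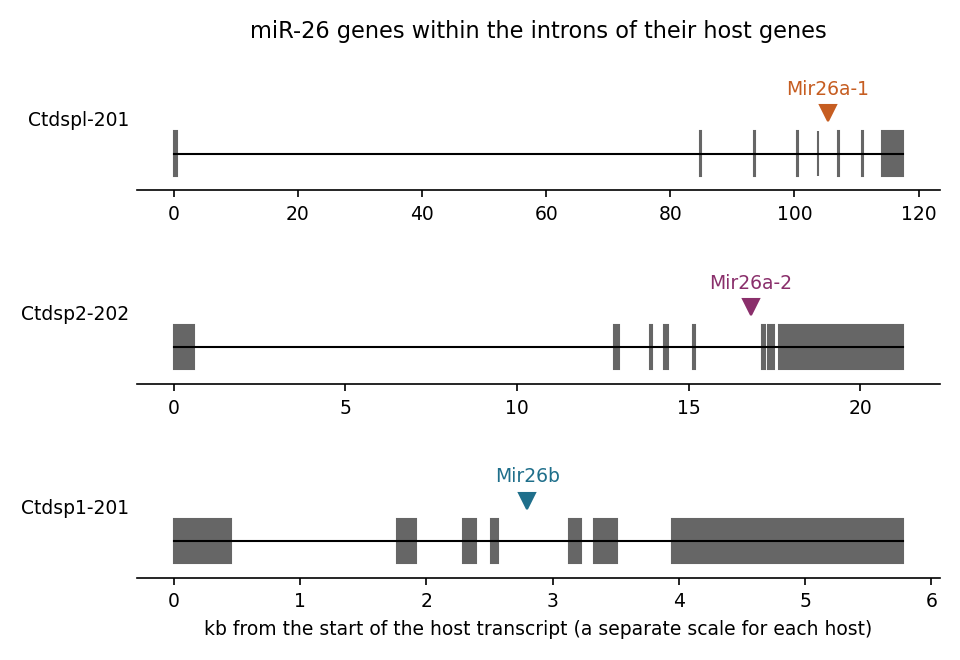
Exons (grey boxes) of 1 coding transcript of each host against the distance in kb from the start of that transcript, with a separate scale for each host and a triangle at the miRNA gene. Each miR-26 gene sits in the intron between the 57-base and the 93-base exon of its host, 105, 16.8 and 2.80 kb from the start.

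The libraries differed in depth. Same-strand gene counts totalled 1131762 in pup 1 and 3327743 in pup 2, a ratio of 2.94, so 1 read was worth 0.884 CPM (the count scaled to a library sum of 1000000) in pup 1 and 0.301 CPM in pup 2. Reads were found for 635 of the gene rows, and 284 rows reached a mean of 10 CPM. Only miRNA genes are tabulated, so the mRNA markers that define the adrenal could not be checked. Mir375, a miRNA known from neuroendocrine cells such as those of the medulla and named here after its values were seen, had 37586 CPM in pup 1 and 30415 CPM in pup 2. A whole gland mixes cell types, and fewer cells of a type cannot be told apart from less RNA per cell.

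Mir26b was among the most abundant miRNA genes of both glands. Its count was 28556 in pup 1 and 92748 in pup 2. On the CPM scale its level was 25232 in pup 1 (95% counting interval 24940 to 25526) and 27871 in pup 2 (27692 to 28051), a mean of 26551 ± 1867 CPM (SD, n = 2). It took 2.66% ± 0.187 of all same-strand gene counts, ranking 14th in pup 1 and 13th in pup 2. The opposite-strand column held 0 counts for it in both libraries, as it did for the other miR-26 genes.

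The miR-26a genes were counted at far lower levels. Mir26a-2 had 35 counts in pup 1 and 155 in pup 2, which were levels of 30.9 CPM (21.5 to 43.0) and 46.6 CPM (39.5 to 54.5), a mean of 38.8 ± 11.1 CPM (SD, n = 2). Mir26a-1 had 13 and 33 counts, which were 11.5 CPM (6.12 to 19.6) in pup 1 and 9.92 CPM (6.83 to 13.9) in pup 2, a mean of 10.7 ± 1.11 CPM (SD, n = 2). All 3 genes passed the minimum mean of 10 CPM, Mir26a-1 narrowly and with a pup 2 value under it. Both miR-26a genes stood above the 3-count floor, of 2.65 CPM for pup 1 and 0.902 CPM for pup 2.

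**Figure D3:**
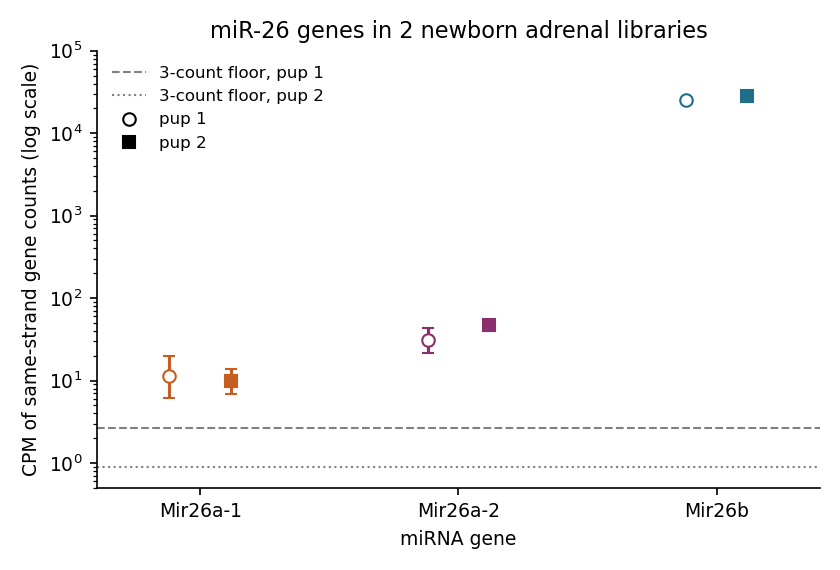
CPM of each miR-26 gene (log axis) in pup 1 (open circles) and pup 2 (filled squares), with exact Poisson 95% intervals and the 3-count floors as grey lines. Mir26b lies at 25232 and 27871 CPM, Mir26a-2 at 30.9 and 46.6 CPM and Mir26a-1 at 11.5 and 9.92 CPM, in the same order in both pups.

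The order Mir26b, Mir26a-2, Mir26a-1 was the same in both pups, and the ranges of the 3 genes did not overlap. Within a library, depth cancels from a ratio of genes. The ratio of Mir26b to the summed miR-26a genes was 595 in pup 1 (449 to 807) and 493 in pup 2 (428 to 572), a mean of 544 ± 71.8 (SD, n = 2). Mir26a-2 exceeded Mir26a-1 by 2.69-fold in pup 1 (1.39 to 5.55) and by 4.70-fold in pup 2 (3.21 to 7.06). The intervals of the pups overlap for both ratios, and those of Mir26a-2 over Mir26a-1 lie above 1 in both libraries. As read counts, the family consisted almost wholly of Mir26b, which gave 99.8% of the reads counted at the 3 genes. Because reads shared by the miR-26a loci are not counted, that percentage is no measure of miR-26b against miR-26a.

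Beside its neighbours in the order of mean levels, Mir26b did not stand clear of the gene below it. Mir322, of an X-linked cluster, had levels of 22882 and 26551 CPM in pups 1 and 2, a range that overlaps that of Mir26b, although Mir26b was higher in each pup. Mir22, next above, had 31934 and 32183 CPM and did not overlap. These genes and Mir335 were also the 3 nearest to Mir26b by the distance of log2(CPM + 1) in the 2 pups, at 0.16, 0.40 and 0.48. By the same distance Mir26a-2 lay nearest to Mir325 at 0.037, Mir212 at 0.065 and Mir153 at 0.18. Mir26a-1 lay nearest to Mir3475 at 0.13, Mir19a at 0.19 and Mir1224 at 0.20. With 2 libraries such a distance describes level and little else.

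Among genes with the same kind of location, all 3 miR-26 genes lay above the median of those with a count, Mir26b by far the most. By annotation, 692 gene rows lay in introns of a protein-coding transcript on the same strand. Of these, 311 had a count, with a median level of 1.78 CPM. That median is below the 3-count floor of pup 1, so lying above it says little about the miR-26a genes. The median was 0.747 CPM for genes overlapping an exon of such a transcript. It was 66.3 CPM for genes in no such transcript, above both miR-26a genes. Mir26b ranked 6th of the 692 intronic genes by mean level, behind Mir126a, Mirlet7g, Mir23b, Mir10b and Mir335. The first 4 of these are named after their values were seen. Mir26a-2 ranked 82nd and Mir26a-1 101st. All 3 are among the 102 intronic genes that reached a mean of 10 CPM.

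Sequence sharing was then tabulated for the 858 gene rows, with or without a count, that had mature strands in RefSeq. A strand counted as occurring in any hairpin that held it or its reverse complement. An antisense hairpin at the same locus therefore counted as a further hairpin. In 759 of them each mature strand occurred in a single hairpin of the RefSeq table, as in Mir26b. Hairpins absent from that table could not be compared. Mir125b-1 is among the 759 although its other copy, Mir125b-2, was absent, and other strands may be placed there likewise. In 53 genes, the miR-26a genes among them, 1 arm occurred in several hairpins and another in 1. Of those 53 genes 48 had a count, with a median of 28.7 CPM (quartiles 6.67 and 104) and a highest level of 4353 CPM in Mirlet7f-2, named after its value was seen. Mir26a-2 ranked 21st and Mir26a-1 34th in this class, and both lay between its quartiles. Of the 759 genes with unshared strands 467 had a count, with a median of 4.16 CPM and quartiles of 0.601 and 202 CPM. Mir26b ranked 13th there. A level of 1000 CPM was reached by 63 of the 759 genes and by 3 of the 53. These classes differ in size, so the raw numbers are not a contrast between them. In the other 46 genes every mature strand occurred in several hairpins. Only 17 of these had a count, and their median of 55.8 CPM was the highest of the 3 classes. Because antisense hairpins enter this class and genes without a count are left out, that median does not measure the effect of sharing. How sharing bears on counted level was not tested.

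The build of miR-26, a mature strand encoded at 2 loci beside a paralogue at 1 locus, was compared over a list of 10 other families, drawn up with earlier results of these data known. As with miR-26a, reads made only of a strand shared by the copies are left out of their counts, while the paralogue keeps its own. This tilts the comparison toward the paralogue in advance, so the values below compare gene counts and not mature miRNAs. The paralogue had the higher mean level in 8 of the 10, in 6 of 10 in pup 1 and in 8 of 10 in pup 2. The median log2 ratio of paralogue to summed copies, computed from mean levels with 1 CPM added, was 1.00, and the values ran from -3.85 to 5.97. miR-26 had 9.04, above all 10. The list takes 1 paralogue per family, although miR-30 and miR-29 have further genes whose strands occur in 1 hairpin. Among these are Mir30a, Mir30e and Mir29c. Mir29c had a mean of 113 CPM, against 686 CPM for the listed Mir29a. The count of 8, the median and the order of the families therefore hold for the listed paralogues only. The list is also not complete, and it leaves out miR-135. Mir135b, whose strands occur in 1 hairpin, had 224 counts in pup 1 and 974 in pup 2. Mir135a-1 had 4 and 0 counts and Mir135a-2 had 0 and 3, near or below the 3-count floor. These genes were named after their values were seen, and their ratio was not computed.

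Within the list, the miR-103 genes, which also lie in introns of a family of hosts, the pantothenate kinase genes, came closest. Mir107, the single-locus paralogue, had 1464 CPM in pup 1 and 1073 CPM in pup 2. Mir103-1 had 4 and 5 counts and Mir103-2 16 and 64, together 17.7 and 20.7 CPM. The ratio of Mir107 to the summed copies was 82.9 in pup 1 and 51.7 in pup 2. It was lower than the miR-26 ratio in both pups. In the Mir103-1 and Mir103-2 hairpins the common run was 27 bases, 4 beyond the shared mature strand.

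The gap was smaller in the other listed families. Mir29a exceeded the summed Mir29b-1 and Mir29b-2 by 19.0-fold in pup 1 and 23.5-fold in pup 2, and Mir125a exceeded the Mir125b genes by 13.0-fold and 10.8-fold. Mir7b exceeded Mir7-1 and Mir7-2 by 2.50-fold and 3.26-fold, and Mir181c exceeded the Mir181a genes by 2.05-fold and 2.31-fold. Mir19a had 13 and 38 counts against 7 and 19 for the Mir19b genes.

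In the opposite direction, Mir92b had 76.9 and 71.2 CPM against 1091 and 1078 CPM of Mir92-1 and Mir92-2 together. Mir30b had 64.5 and 72.4 CPM against 176 and 96.2 CPM of the Mir30c genes. That direction belongs to the listed paralogue. Mir30e and Mir30a, which are not on the list, had mean levels of 11535 and 4461 CPM, above the summed Mir30c genes. Mir196b was below its copies in pup 1, at a ratio of 0.716, and above them in pup 2, at 2.70. The miR-133 family counts among the 8 only through 4 reads of Mir133b in pup 2, and Mir133a-1 and Mir133a-2 had no count in either pup.

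**Figure D4:**
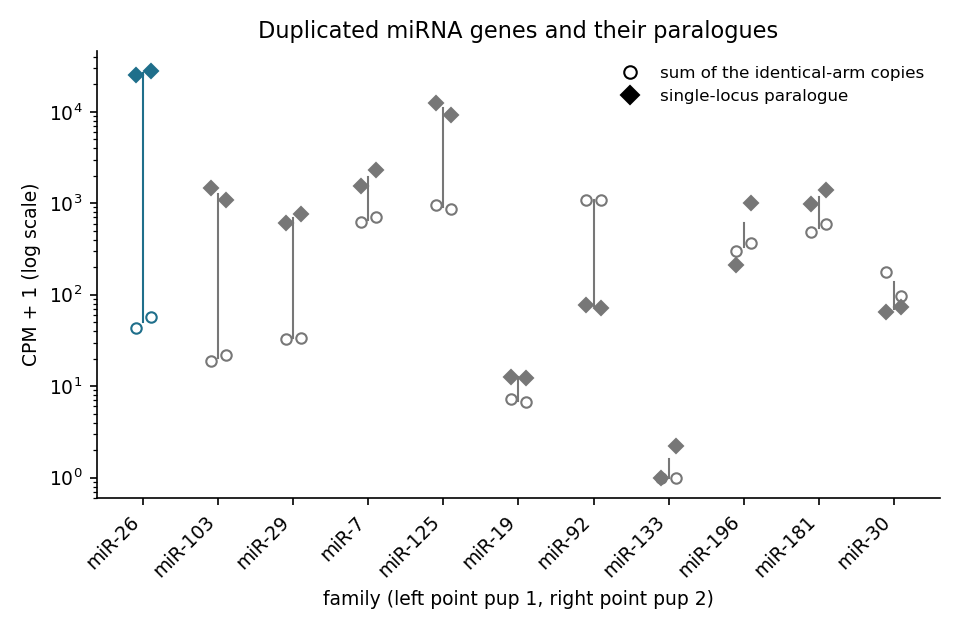
CPM + 1 (log axis) of the summed copies (open circles) and the single-locus paralogue (diamonds) in 11 families, with pup 1 left and pup 2 right of each line that joins the means. miR-26, in blue, has the widest gap of the 11, with Mir26b at 25232 and 27871 CPM over 42.4 and 56.5 CPM for the summed miR-26a genes. Reads that match both copies are left out of the counts of the copies.

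Between the pups the miR-26 genes differed by less than 2-fold. With 1 library per pup there is no test, and the intervals cover counting error only. Mir26b was 1.10-fold higher in pup 2 (95% interval 1.09 to 1.12), a log2 ratio of 0.14. Mir26a-2 was 1.51-fold higher (1.04 to 2.24), a log2 ratio of 0.58. Mir26a-1 had a ratio of 0.863 (0.442 to 1.79), so its direction was not detectable at this depth. None of the 3 genes reached 2-fold, against 5.28% of the 284 genes that reached a mean of 10 CPM. Of those 284, 3.52% were at least 2-fold higher and 1.76% at least 2-fold lower in pup 2.

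The differences lay within the range of the other genes. Over the 284 genes the log2 ratios had a median of 0.08 and quartiles of -0.22 and 0.36. Mir26b lay inside these quartiles, as did Mir26a-1 at -0.19, while Mir26a-2 lay above them. By size, the log2 ratio of Mir26b exceeded that of 69 of the 284 genes, that of Mir26a-1 exceeded 97 and that of Mir26a-2 exceeded 227. TMM scaling moved the median log2 ratio up by 0.11, and the 3 genes kept their directions under it.

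**Figure D5:**
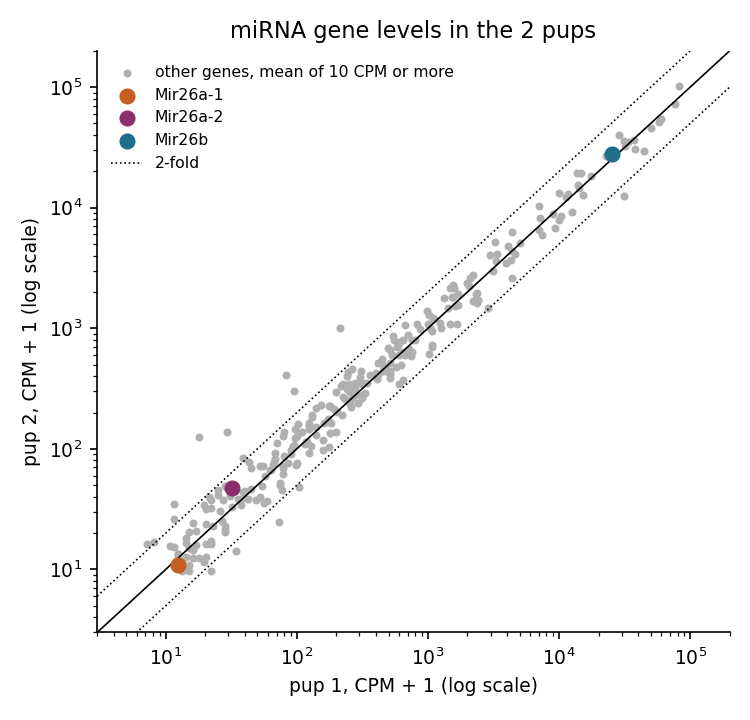
CPM + 1 in pup 2 against pup 1 (log axes) for the 284 genes that reached a mean of 10 CPM, with the line of equality and the 2-fold limits (dotted). The 3 miR-26 genes lie within the 2-fold limits, Mir26b at the upper end of the range and Mir26a-1 at the lower end.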

How the data were processed

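Small RNA was sequenced from the adrenals of 2 newborn littermates. For each library the authors deposited a table of raw counts of reads by miRNA gene, in 3 strand columns. Per the notes deposited beside the tables, the assembly was mm10 with GENCODE M4. No source used here gives the aligner, the trimming or the counter. The row names set unmapped, multi-mapped, no-feature and ambiguous reads apart from genes. Reads of these kinds other than multi-mapped ones made up 14.7% and 15.1% of reads in pups 1 and 2. These rows were left out of library sizes.

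The same-strand column was scaled to CPM. Symbols, coordinates and hosts came from GENCODE M21, of the same assembly, matched by identifier without version, and 79 rows had no symbol there. Log2 ratios of pup 2 over pup 1 had 1 CPM added to both levels and were read against a 2-fold threshold over the genes that reached a mean of 10 CPM. Intervals are exact at 95% (Poisson for levels, conditional for ratios) and cover counting error only, since reads are not independent molecules. The floor is 3 counts. No test was possible with 1 library per pup. The libraries differed beyond sampling noise (chi-square per degree of freedom 82.1 over 635 genes), which does not show that they came from separate animals. They were counted as 2 samples because the labels name separate pups. The ratio step was run on simulated Poisson counts. These lack the difference beyond sampling noise seen here, so that run does not check the intervals against it.

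The rule for the members uses symbols and location only, but the members and lists were chosen with earlier results of these data known. By rule the named genes are the members, the 3 genes nearest each, and those of the family list. Mir375, Mir126a, Mirlet7g, Mir23b, Mir10b, Mirlet7f-2, Mir29c, Mir30a, Mir30e, Mir135a-1, Mir135a-2 and Mir135b were named after their values were seen. In the family list, Mir7a-1 and Mir7a-2 were found as Mir7-1 and Mir7-2. Alternatives were scaling by DESeq2 1.42.0 and edgeR 4.0.16 (TMM), other filters, priors, library sizes and strand columns, and leaving out each pup. Python 3.11.15, pandas 2.3.3 and scipy 1.17.1 were used.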

Additional observations from a re-analysis of the deposited data

How the results depend on the processing

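No paired analysis was possible because the 2 libraries form a single group. Leaving out a pup leaves no pup ratio, so the ratios have no such alternative. With multi-mapped and no-feature reads in the library size, mean levels fell to 6.18 CPM for Mir26a-1, 22.5 CPM for Mir26a-2 and 15389 CPM for Mir26b, and the summed share to 1.54%. Without the most abundant gene in the library size, Mir26b had 29260 CPM and the summed share was 2.93%. The log2 ratio of Mir26b between the pups was 0.18 with DESeq2 size factors and 0.25 with TMM. The number of genes past 2-fold rose from 15 to 85 without the filter on level, which admits genes with few reads, and fell to 4 with a minimum mean of 100 CPM, which tests fewer genes. By unstranded counts Mir26a-1 ranked 293 and Mir26a-2 ranked 239, in place of 283 and 228. Leaving out each pup gave ranks of 281 to 290 for Mir26a-1, 219 to 230 for Mir26a-2 and 13 to 14 for Mir26b. Of the 53 alternative values, 11 could not move past the spread by construction (leaving out 1 of 2 pups for levels, share and gene ratio, and unstranded counts for the gene ratio), so they say nothing about stability. A further 27 moved by less than the spread between pups, the counting interval or, for counts of genes or families, 1.5 times. Depth limits the miR-26a genes most, whose counts were 13 to 155 per library.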
